A study of Rattus norvegicus with 32 samples.

Results

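Early-life iron deficiency was compared with iron sufficiency in female Sprague-Dawley rats that had received choline before birth. Bulk RNA of the whole adult hippocampus was sequenced at 65 days of age. The comparison used 8 of the 32 libraries of the series, chosen by sequencing batch and diet label, with 4 libraries from rats labelled IDch (iron deficient with choline) and 4 from rats labelled ISch (iron sufficient with choline). All 8 rats shared the choline supplement, the sex, the age and sequencing batch II, so the contrast was the iron content of the early diet. In the study's protocol for its male rats, the iron-deficient diet was fed to the dams from gestation into early lactation, and an iron-sufficient diet followed, so the adult animals were formerly deficient. The same timing for the females was taken from the shared design. The other 8 female libraries, labelled ID and IS, had the same diet contrast without choline, and 8 male libraries of batch I had it with choline. Sex, sequencing batch and RNA extraction kit differed together between the male and female libraries and cannot be told apart. The design text calls the rats biological replicates and does not say from which litters they came. The study's methods state that 1 rat per litter was used, but for males only, and whether this held for the females is not given in the sources used here.

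Iron is a cofactor of the respiratory chain, of heme enzymes and of the dioxygenases that remove methyl groups from DNA and histones. Choline feeds phosphatidylcholine, acetylcholine and, through betaine, the methyl groups of the methionine cycle. In the hippocampus, neuronal firing and calcium entry switch on immediate early genes within minutes through the transcription factors SRF and CREB, and many of their products (the EGR, FOS and NR4A families) are themselves transcription factors of synaptic plasticity. Some of them, Per1 among them, also respond to glucocorticoids and to the time of day.

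In these 8 libraries the gene list with the most members lower in IDch than in ISch rats was that of the immediate early genes. Of 25 members, 7 were lower at the study's criterion and none was higher. The criterion was an absolute log2 fold change over 0.2 with an unadjusted p under 0.05, and 2.75% of all genes tested met it in the lower direction. The 7 were Egr1, Egr2, Egr3, Egr4, Fosb, Nr4a1 and Per1. The median log2 fold change over the list was -0.252, against -6.28e-04 over all 14521 genes tested. None of the 7 reached an adjusted p under 0.05 in the edgeR quasi-likelihood fit, where their adjusted p ran from 0.44 to 0.588. Egr2, Per1 and Egr1 passed under DESeq2 (adjusted p = 0.00463, 0.00771 and 0.0261) and under the edgeR likelihood ratio test (0.00911, 0.00911 and 0.043), both of which were alternatives.

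The promoters of a pair of these genes are shown because they carry the letter motifs of the activity-responsive factors. Each run holds 250 bases before and 50 bases after the RefSeq start of the gene, read 5′ to 3′ on the gene's strand in build GRCr8, which is not the build of the counts. For Egr2 (chr20:21054392-21054691, minus strand) the capitals mark a CArG box, the site bound by SRF. For Nr4a1 (chr7:134259888-134260187, plus strand) the capitals mark the core site of the cyclic AMP response element, TGACG, which here reads CGTCA because it lies on the opposite strand.
Egr2: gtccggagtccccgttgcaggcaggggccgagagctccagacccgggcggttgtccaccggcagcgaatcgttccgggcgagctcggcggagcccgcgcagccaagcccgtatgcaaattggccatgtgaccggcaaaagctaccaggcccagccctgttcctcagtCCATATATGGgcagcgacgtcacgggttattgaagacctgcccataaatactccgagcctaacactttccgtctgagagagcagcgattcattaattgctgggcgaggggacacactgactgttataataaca
Nr4a1: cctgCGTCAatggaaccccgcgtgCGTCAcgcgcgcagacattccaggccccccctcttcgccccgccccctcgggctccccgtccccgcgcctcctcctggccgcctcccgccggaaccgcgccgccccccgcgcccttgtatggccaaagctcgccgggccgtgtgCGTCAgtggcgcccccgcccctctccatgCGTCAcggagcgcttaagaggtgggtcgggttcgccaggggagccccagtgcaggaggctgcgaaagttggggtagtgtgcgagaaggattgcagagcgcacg

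The Egr2 run held 1 CArG box, which ended 73 bases before the start, and the Nr4a1 run held 4 copies of the core site. Of the 7 genes at the criterion, 6 had a promoter in the table. Among these 6, TGACG was found on either strand in 4, a CArG box in 2 and the full palindrome TGACGTCA in none. Of the other 18 members, 14 had a promoter, with TGACG in 7, a CArG box in none and the palindrome in 4. Egr3, Fos, Jun, Arc and Nr4a3 had no promoter there, so these counts do not compare the full sets. Over 33469 promoters of the same length, 21.2% held TGACG, 1.64% a CArG box and 1.83% the palindrome, which contains TGACG. These matches describe letters in a window and are not evidence of binding.

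The 8 libraries held 18439999 to 26616318 counts on genes, with 21107856 to 26616318 in IDch and 18439999 to 20341312 in ISch, so each IDch library was deeper than each ISch library. Female labels were met: Eif2s3y and Kdm5d had 0 counts and Ddx3y at most 11 in each of the 8. The library names carry a number that was 16, 17 or 18 in 3 of the 4 IDch libraries and in 1 of the 4 ISch libraries, and 1, 2 or 3 in the others. The labels do not say what the number stands for. The first principal component, 24.8% of the variance, separated libraries numbered 16 to 18 (12.5 to 20.4) from the others (-26.9 to -7.07). The second, 17.2%, ran from -23.9 to -2.1 in IDch and from 1.1 to 21.6 in ISch. Within a diet, 2 libraries of the same number class differed by a chi-square per gene of 5.18 to 6.87, and 2 libraries of different classes by 11 to 25.2. With diet in the model, 958 genes differed between the number classes at an adjusted p under 0.05 (edgeR, 6.6% of those tested). Because the classes were unequally spread over the diets, the values below are set beside those with the class as a covariate, or within the classes, where these change a call, a direction or the size of a result. Each difference within a class sets 3 libraries of one diet against 1 of the other, so 1 side of it has no replicate.

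**Figure D1:**
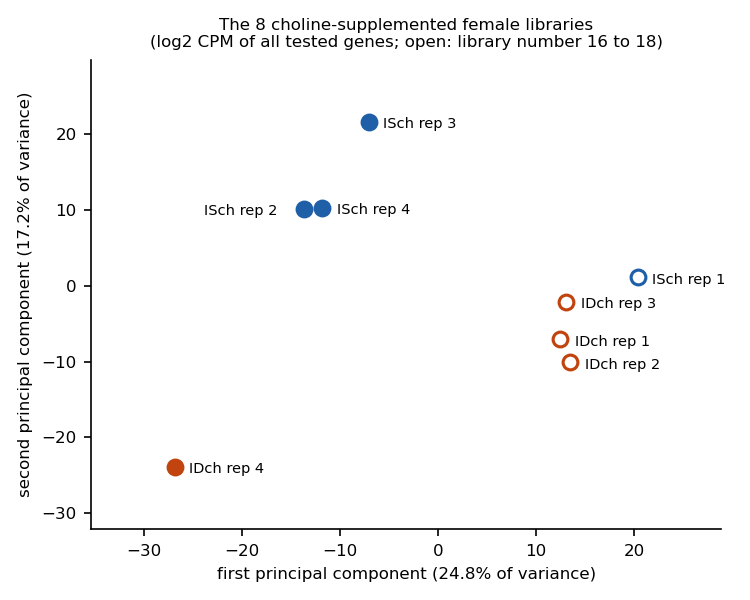
Principal components of log2 CPM (counts scaled to the library total) of the 14521 genes tested, with 1 point per library, orange for IDch and blue for ISch, and open points for library numbers 16 to 18. The horizontal axis separates the number classes, and the vertical axis separates the diets, with IDch replicate 4 lowest on both at -26.9 and -23.9.

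Over all genes, 663 of 14521 met the criterion (4.57%), 264 higher in IDch (1.82%) and 399 lower (2.75%). An unadjusted p under 0.05 was reached by 1152 genes (7.93%). With the number class as a covariate the count was 1431 (9.85%), with 417 higher (2.87%) and 1014 lower (6.98%). All 663 genes kept their sign under the covariate and 383 of them (57.8%) kept the criterion. Under the covariate 3 genes (0.0207%) reached an adjusted p under 0.05 (edgeR), AABR07031918.1, Pcdh17 and Tnks. With library size alone as the scaling, 652 genes met it and the share that was higher was 51.7% in place of 39.8%, so the excess of lower over higher genes rests on the scaling. A single gene reached an adjusted p under 0.05 (edgeR, 0.00689% of those tested).

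Egr2 showed the widest gap of the immediate early genes. EGR2 is a zinc finger transcription factor, and its gene is induced by strong synaptic stimulation. Egr2 normalized counts in IDch replicates 1 to 4 were 62.7, 96.6, 86.1 and 138, and in ISch replicates 1 to 4 they were 219.6, 182, 178 and 196. Every IDch library was below every ISch library. The means were 96 ± 31.6 and 194 ± 18.9 (SD, n = 4 each), and the log2 fold change was -1.02 with a standard error of 0.21 (edgeR, unadjusted p = 5.63e-04). A 2-sided exact permutation test gave p = 0.029, the smallest that 4 against 4 allows. The difference was -1.44 on the log2 scale among libraries numbered 16 to 18 and -0.42 among those numbered 1 to 3. Egr2 counts in the females without choline were 54.7 to 122 in ID and 71.9 to 88.3 in IS, so the ISch rats were the group that lay apart from the other female groups.

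Egr1 encodes a zinc finger factor of late-phase plasticity and is a widely used marker of neuronal activity. Its normalized counts were 2368, 2712, 2329.7 and 3437 in IDch replicates 1 to 4 and 3474, 4237, 3681 and 4119 in ISch replicates 1 to 4. The groups did not overlap, although IDch replicate 4 (3437) lay close to ISch replicate 1 (3474). The log2 fold change of Egr1 was -0.51 with a standard error of 0.12, and -0.35 with a standard error of 0.08 when the number class was in the model. Without choline, Egr1 counts were 2956 to 3711 in ID and 2552 to 3024 in IS, a log2 difference of 0.23 in the other direction.

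Egr3, a further EGR factor downstream of synaptic activity, had a smaller difference with little spread. Its normalized counts were 1374, 1511, 1575 and 1397 in IDch replicates 1 to 4 and 1681, 1893, 1689 and 1790.4 in ISch replicates 1 to 4. No IDch value reached an ISch value. The log2 fold change of Egr3 was -0.27 with a standard error of 0.062, -0.36 within numbers 1 to 3 and -0.18 within numbers 16 to 18.

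Per1 encodes a repressor of the circadian clock that is also induced by activity and by glucocorticoids. Per1 normalized counts were 1353, 1128, 1176 and 1612 in IDch replicates 1 to 4 and 1888, 1801, 2006 and 1778 in ISch replicates 1 to 4. All 4 IDch values lay below all 4 ISch values. The log2 fold change of Per1 was -0.50 with a standard error of 0.1, and within the classes it was -0.64 (16 to 18) and -0.21 (1 to 3).

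Nr4a1, Fosb and Egr4 met the criterion with overlapping groups, and they were added to the named genes after their values were seen. NR4A1 is an orphan nuclear receptor induced by calcium and cyclic AMP. Nr4a1 normalized counts were 899.7, 807, 1016 and 1786 in IDch replicates 1 to 4 and 1411, 1777, 1709 and 1961 in ISch replicates 1 to 4. The fourth IDch library lay inside the ISch range and the other 3 lay below it. The log2 fold change of Nr4a1 was -0.61 with a standard error of 0.22. It was -0.02 within numbers 1 to 3, where IDch replicate 4 was the only IDch library, and -0.64 within numbers 16 to 18. Nr4a1 fell short of the criterion when IDch replicate 1, 2 or 3 or ISch replicate 4 was left out.

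Fosb encodes a partner of JUN proteins in the AP-1 complex. Fosb normalized counts were 181 to 219 in IDch and 203 to 404 in ISch, a log2 fold change of -0.55 with a standard error of 0.18 (-0.53 with the class covariate), and it missed the criterion in the fit of all 4 female groups. Egr4, the fourth EGR gene, had 132 to 202 in IDch and 158 to 266 in ISch, a log2 fold change of -0.48 with a standard error of 0.18. Egr4 missed the criterion under the class covariate and when IDch replicate 1, 2 or 3 or ISch replicate 2 or 4 was left out.

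**Figure D2:**
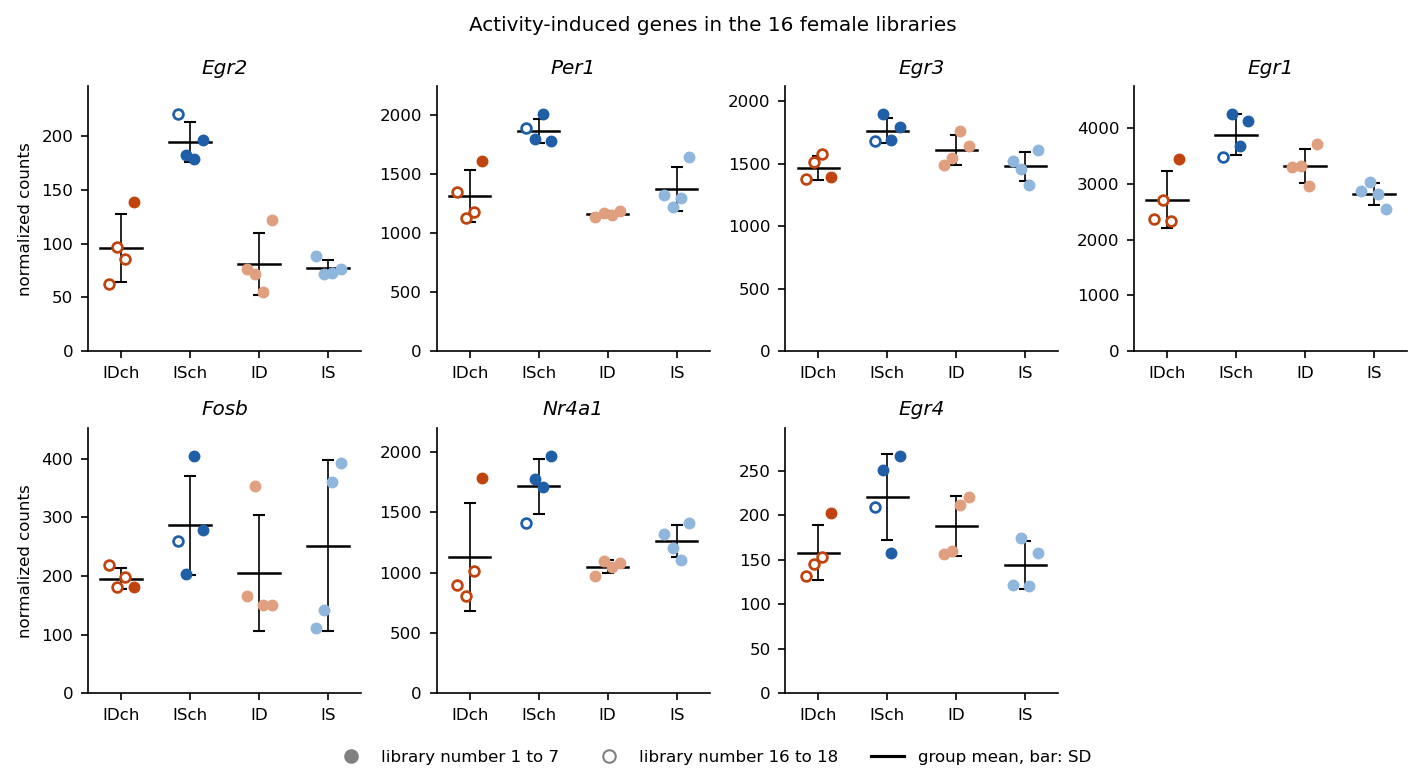
Normalized counts of the 7 immediate early genes at the criterion in the 16 female libraries, with 1 point per library, open points for library numbers 16 to 18, the group mean as a line and the SD as a bar. The ISch points lie above all IDch points for Egr2, Per1, Egr3 and Egr1, and IDch replicate 4 (the filled IDch point) is the highest IDch library in 5 of the 7 genes.

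The other 18 members did not meet the criterion. Arc, whose product controls AMPA receptor endocytosis, had a log2 fold change of -0.44 with an unadjusted p of 0.0654, and Dusp6, a phosphatase of ERK, had -0.36 with 0.0954. Fos stayed at -0.05, Jund at -0.01 and Nptx2 at -0.01. In all, 20 of the 25 members had a negative value, and Npas4, a neuron-specific factor of the inhibitory response, had the highest at 0.24. All 4 EGR genes met the criterion, and Fosb alone did among the 6 FOS and JUN genes measured, a difference that was not tested.

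The libraries that stood apart moved this count. With the number class as a covariate 9 members were lower and the list median was -0.13. Without IDch replicate 4 the count was 12, and without ISch replicate 1 it was 11. The count over all genes rose in the same settings, from 399 lower to 1014 (6.98%), 612 and 519, so a higher count there is not particular to these genes. Leaving out any 1 of the other 6 libraries gave 5 to 10. Egr1, Egr2, Per1 and Nr4a1 had an adjusted p of 0.024, 0.0284, 0.0212 and 0.024 in the edgeR fit without IDch replicate 4. That fit kept only IDch libraries numbered 16 to 18, beside ISch libraries of both classes. Diet and number class were therefore more closely tied in it.

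The iron contrast on these genes was set beside the same contrast in rats without choline and in males. In females without choline, 9 of the 25 members were higher in ID than in IS at the criterion (3.08% of all genes) and 2 were lower (3.4%), with a list median of 0.196. The 2 lower members were Per1 at -0.24 and Nr4a1 at -0.27, which were lower with choline as well. In choline-supplemented males 2 were higher (3.09%) and none was lower (5.03%), with a list median of 0.0287. The difference between the contrast with and without choline was negative at the criterion in 10 of the 25 members and positive in none. Over all genes, 4.16% were negative and 3.17% positive. That difference contains the contrast that singled out these genes, so the count of members is not separate support. Among the 25 members, Egr1 had the smallest unadjusted p in that test, at 1.11e-04. Its interaction was -0.75 with a standard error of 0.15, but the adjusted p was 0.141 (edgeR). The interaction was -1.10 for Egr2, -0.86 for Egr4 and -0.39 for Egr3, with adjusted p of 0.346, 0.356 and 0.218.

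Against the males the interaction was negative at the criterion in 7 of the 25 members and positive in none. Over all genes, 5.76% were negative and 4.13% positive. The interaction with the males also contains the contrast that singled out these genes, so this count is not separate support either. Per1 was lower in IDch females and had a log2 fold change of 0.36 in males, and its interaction of -0.88 had an unadjusted p of 2.75e-05. For that contrast sex, batch and extraction kit cannot be told apart.

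**Figure D3:**
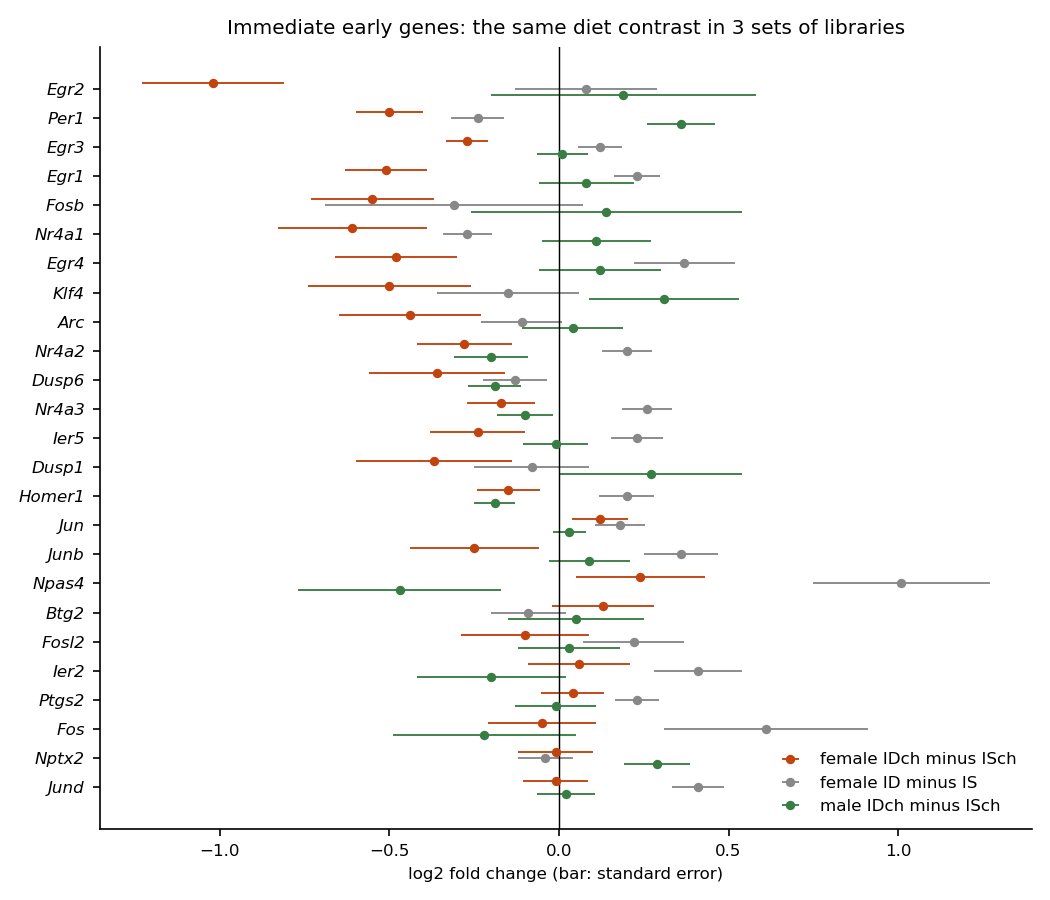
Log2 fold changes of the 25 immediate early genes with their standard errors as bars, in females with choline (orange), females without choline (grey) and males with choline (green), ordered by p in the first. The orange points of the 7 upper rows lie between -1.02 (Egr2) and -0.27 (Egr3), while the grey and green points of the EGR genes lie at or right of 0. The grey points of Per1, Nr4a1 and Fosb lie left of 0.

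Levels of region markers were checked beside this result because a hippocampal dissection can include neighbouring tissue, and because fewer cells of a type and less RNA per cell cannot be told apart in bulk tissue. All 5 CA1 pyramidal markers tested had negative values, with a median of -0.398, which was -0.0546 with the class covariate. Only Gpr161, an orphan receptor of the cilium, met the criterion, with 555 to 756 normalized counts in IDch and 730.3 to 1089 in ISch. Over all genes, 2.75% were lower at the criterion. The summed CA1 level was 537 to 1156 CPM in IDch and 799 to 1117 in ISch, so the summed ranges overlapped. Of 11 neocortex markers 9 were negative with a median of -0.166, and Tbr1 was lower at -0.32 but missed the criterion under the class covariate (-0.25). The summed neocortex level was 393 to 401 in IDch and 392 to 448 in ISch. None of the CA1 or neocortex markers was at 0 in all 8 libraries. The part of these markers in the lower immediate early genes was not tested. Among the striatum markers Foxp1, a forkhead transcription factor, was at -0.20 with overlapping groups and missed the criterion under library size alone and without any 1 of 5 libraries, and the summed striatum level was 191 to 206 in IDch and 197 to 217 in ISch. Dentate granule cell markers (0 of 9 at the criterion), CA2 and CA3 markers (0 of 9) and interneuron markers (0 of 14) had medians of -0.115, 0.144 and 0.0324. With the class covariate these were -0.027, -0.0125 and -0.022, so the sign of the last pair turned, and 2 interneuron markers were lower (6.98% of all genes).

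Glucocorticoid targets overlapped the immediate early genes through Per1. Of 13 targets tested, 3 were lower at the criterion, Per1 among them, where 2.75% of all genes were lower. None was higher and 12 were negative, with a median of -0.255. Pdk4, a kinase that inhibits pyruvate dehydrogenase, had 43.5, 41.6, 57.8 and 87.5 normalized counts in IDch replicates 1 to 4 and 54.1, 96.3, 173 and 96.2 in ISch replicates 1 to 4. The ranges overlapped, and the log2 fold change of Pdk4 was -0.87, or -0.34 with the class covariate, where it missed the criterion. Cdkn1a, an inhibitor of cell cycle kinases, was at -0.47 with overlapping groups and also missed it under the covariate. With other members in their place, 3 of the 13 targets were lower under the covariate (6.98% of all genes), with a median of -0.169. The targets best known in brain, Fkbp5 and Tsc22d3, had log2 fold changes of -0.01 and 0.02. In females without choline 8 of the 13 targets were lower (3.4% of all genes), and Pdk4 had the same log2 difference of -0.87. In males 5 of 12 were higher (3.09% of all genes). Of the 17 circadian clock genes Per1 and Per2 were lower, and Per2 had 958 to 1116 in IDch and 1147 to 1299 in ISch, a log2 fold change of -0.24. Per2 missed the criterion under the class covariate (-0.20) and without IDch replicate 3. With the covariate 2 of the clock genes were lower.

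A single gene reached an adjusted p under 0.05, the unnamed entry AABR07031918.1 (ENSRNOG00000051569). Its raw counts were 3 to 9 in IDch and 54 to 110 in ISch. In normalized counts it had 2.61, 5, 8.81 and 7.12 in IDch replicates 1 to 4 and 119, 65, 122 and 66.7 in ISch replicates 1 to 4, with no overlap. The log2 fold change was -3.98 with a standard error of 0.37 (edgeR, adjusted p = 0.00808). Its adjusted p ran from 2.25e-19 to 0.0881 over the alternatives, and it was above the threshold only without IDch replicate 2. In females without choline the same entry had 1.16 to 5.36 normalized counts in ID and 0.971 to 5.13 in IS, so the 4 ISch libraries alone were high. A further unnamed entry, AABR07001512.1 (ENSRNOG00000017412), was too low to be tested in the 8 libraries, with 0 to 2 raw counts in IDch and 8 to 17 in ISch. It had 30.3 to 46.3 normalized counts in ID and 26.1 to 45.8 in IS. It was the single gene whose iron contrast differed between choline and no choline at an adjusted p under 0.05 (interaction -3.98, edgeR adjusted p = 0.0294, 0.00668% of 14975 genes), and also the single gene whose contrast differed between females and males (interaction -5.61, 0.00661% of 15125 genes). AABR07001512.1 passed the filter only with libraries outside the 8 added, and its raw female IDch counts of 0 to 2 enter both differences. In males it had 6.48 to 19.5 normalized counts in IDch and 0.968 to 5.6 in ISch, scaled over the male libraries. This opposite direction also enters the difference between females and males. Neither entry was matched to a gene in the reference table, and reads shared with a near-identical copy cannot be told apart for them.

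With no named gene at the adjusted threshold in the edgeR quasi-likelihood fit, the 8 genes with the smallest unadjusted p in each direction were taken among named genes at the criterion whose groups did not overlap. Over all genes tested, 2.34% did not overlap and were higher in IDch and 2.68% did not overlap and were lower. The adjusted p of these 16 genes ran from 0.203 to 0.44 (edgeR), and each reached the smallest exact permutation p of 0.029, which their choice fixed. DESeq2 gave 13 of the 16 an adjusted p under 0.05 and the edgeR likelihood ratio test 11, with the lowest for Hs6st3 in both (1.49e-04 and 3.19e-04). All 16 met the criterion under every alternative tried, except Krt222 under the class covariate.

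Among the higher genes, Akr1c19, an aldo-keto reductase, had the largest fold. Akr1c19 normalized counts were 90.6, 71.6, 55.8 and 93.6 in IDch replicates 1 to 4 and 37.9, 33.7, 30.4 and 25.1 in ISch replicates 1 to 4, a log2 fold change of 1.29 with a standard error of 0.22. The IDch mean of 77.9 ± 17.7 (SD, n = 4) was also above the means of ID (43.6) and IS (48.5) females, although the IS range of 29.9 to 68 overlapped the IDch range. Aqp9, a channel for water, glycerol and lactate, had 154, 181, 161 and 192 in IDch replicates 1 to 4 and 118, 99.9, 114 and 109 in ISch replicates 1 to 4. Its log2 fold change was 0.64 with a standard error of 0.12, and ID (82.8 to 113) and IS (95.8 to 132) females lay with ISch. Aldh9a1, an aldehyde dehydrogenase of carnitine synthesis that also oxidises betaine aldehyde, had 566 to 620.1 in IDch and 404 to 492 in ISch, a log2 fold change of 0.39. ID and IS females had 511 to 560.4 and 435 to 585, between and across these ranges.

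Ift140, a part of the retrograde transport complex of cilia, had 1341 to 1560.3 normalized counts in IDch and 1098 to 1235 in ISch (0.33 on the log2 scale), and both lay above the 761 to 857 of ID and IS females. It overlaps Tmem204 in the reference table, and whether the counting used strand was not given in the sources used here. Log2 fold changes stand in parentheses for the following genes. Mrpl50, a protein of the mitochondrial ribosome, had 349 to 402 in IDch and 275 to 317 in ISch (0.36). Tnc, which encodes the matrix glycoprotein tenascin C, had 374 to 469 and 279 to 330 (0.41). Syt5, a synaptotagmin of vesicle release, had 3245 to 3677 and 2685 to 3114 (0.28). Krt222, a keratin-like gene, had 759 to 825 and 663 to 703 (0.23). For Mrpl50, Syt5 and Krt222 the ID and IS means lay nearer to the IDch mean than to the ISch mean, and for Tnc they lay below both.

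Among the lower genes, Hs6st3, an enzyme that adds sulphate to heparan sulphate, had the smallest unadjusted p of the named genes at 2.80e-05. Hs6st3 normalized counts were 335, 327, 337 and 355 in IDch replicates 1 to 4 and 465, 474, 448 and 525 in ISch replicates 1 to 4. The log2 fold change was -0.50 with a standard error of 0.07, and it was -0.44 and -0.48 within the number classes 1 to 3 and 16 to 18. Chst15, a further sulphotransferase that acts on chondroitin sulphate, had 726 to 806 in IDch and 909 to 1002 in ISch (-0.33). Crabp1, which binds retinoic acid in the cytosol, had the largest fold, with 42.7, 27.5, 21.5 and 27.5 in IDch replicates 1 to 4 and 89.8, 81.9, 49.2 and 118 in ISch replicates 1 to 4. Its log2 fold change was -1.5 with a standard error of 0.29, and the ID (70.6 to 125) and IS (70.4 to 119) females overlapped the ISch range and not the IDch range.

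Sstr4, a somatostatin receptor of hippocampal pyramidal cells, had 442 to 529 normalized counts in IDch and 586 to 604 in ISch, a log2 fold change of -0.35. ID (598 to 658) and IS (552 to 669) females lay above the IDch rats. Lrrc8c, a subunit of the volume-regulated anion channel, had 618 to 705 in IDch and 836 to 969.5 in ISch (-0.41), and ID (656 to 774) and IS (685 to 719) females lay below ISch. Proser2, a proline- and serine-rich protein, had 44.8 to 54.1 and 75.8 to 77.9 (-0.69). Egr2 and Per1 completed the 8. The interaction with choline, which contains the contrast that chose these genes, had an adjusted p of at least 0.176 in all 16 (edgeR).

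**Figure D4:**
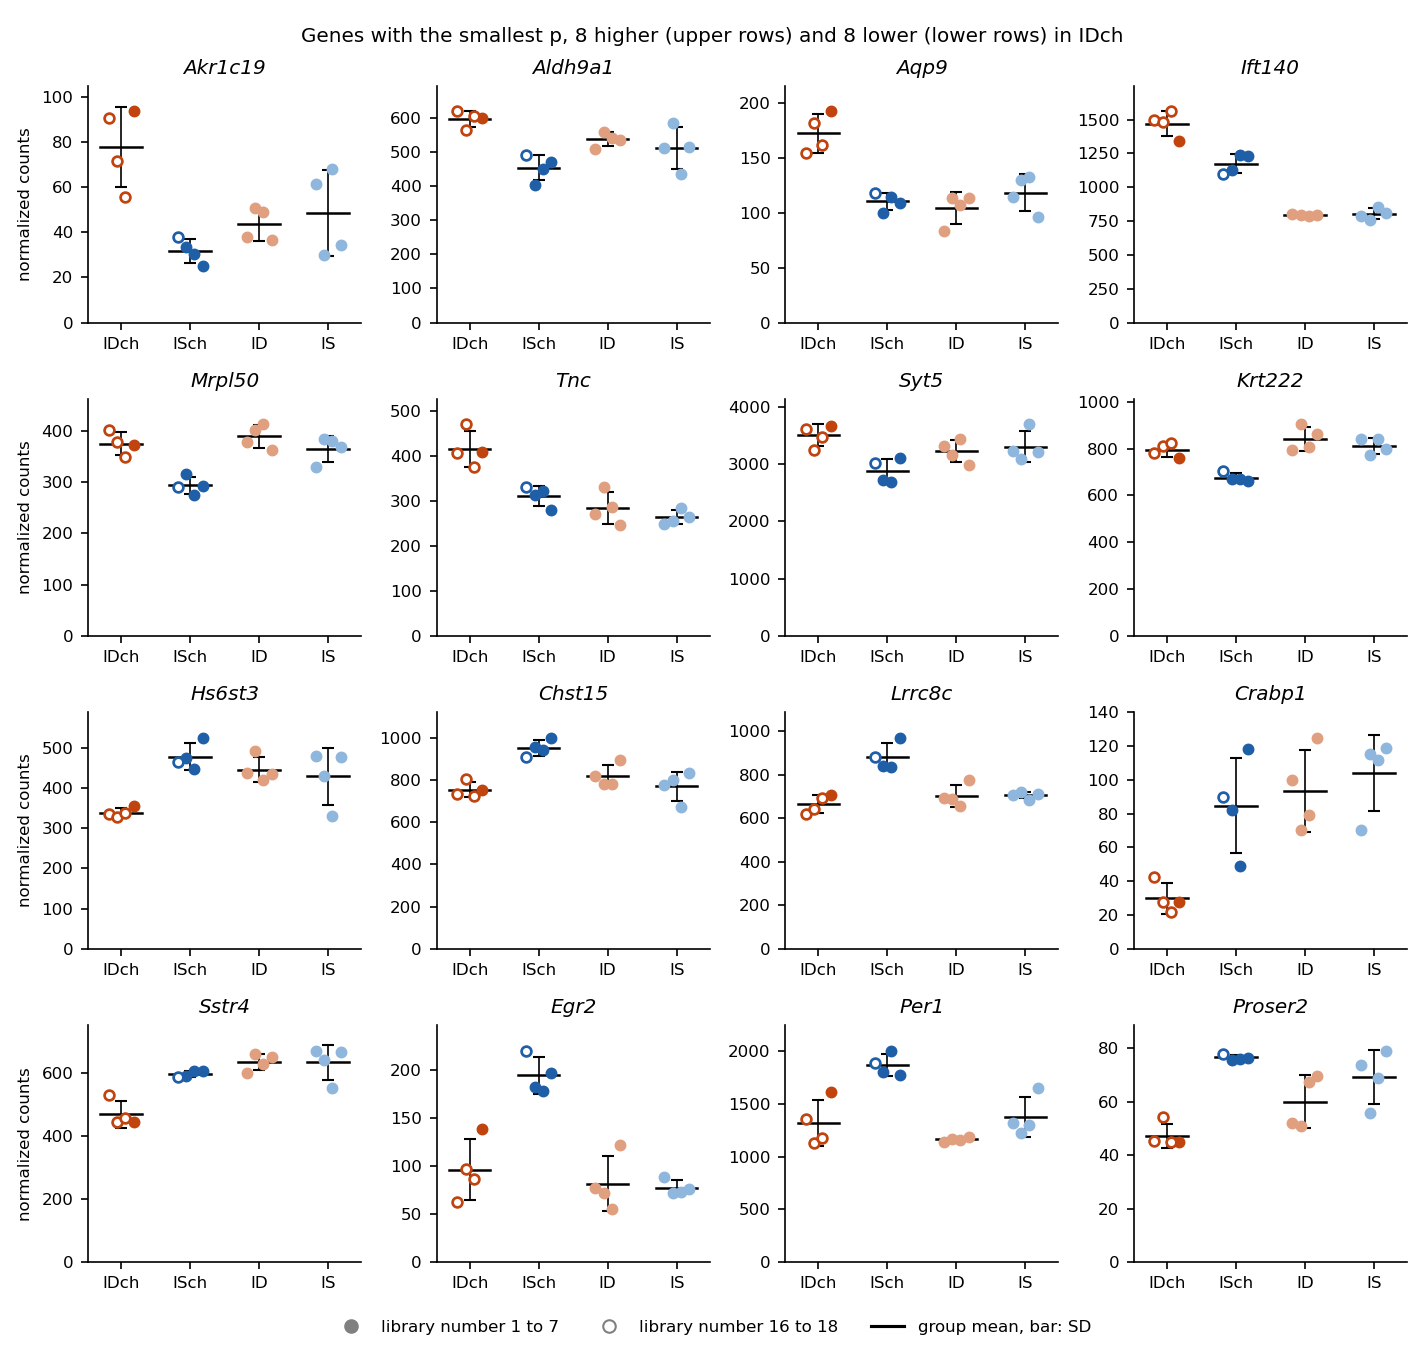
Normalized counts in the 16 female libraries for the 8 named genes with the smallest p among those higher in IDch (upper 2 rows) and lower in IDch (lower 2 rows), with group means as lines and SD as bars. By the choice of genes the IDch and ISch points do not overlap; the IDch range is apart from the other 3 groups for Aqp9 and Crabp1, among others, and the ISch range for Egr2, Per1 and Lrrc8c, among others.

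Genes of iron handling showed no member at the criterion among 20 tested, with 10 negative and 10 positive values and a median of -0.0124. With the class covariate 1 was higher (2.87% of all genes) and 1 lower (6.98%), and the median was 0.0445. Tfrc, the transferrin receptor whose mRNA is stabilised when cellular iron is low, had 4208, 3672, 3864 and 3498 normalized counts in IDch replicates 1 to 4 and 3426, 3036, 3722 and 3455 in ISch replicates 1 to 4. The groups overlapped, with a log2 fold change of 0.16, a standard error of 0.073 and an unadjusted p of 0.0509, and 0.12 with the class covariate. In females without choline the log2 difference of Tfrc was 0.17 with a standard error of 0.047. Among 24 genes of heme and iron-sulfur cluster synthesis, 1 was higher (1.82% of all genes), the scaffold Nfu1. It had 366 to 397 in IDch and 289 to 357 in ISch (0.25), and it lost the criterion without ISch replicate 1.

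Genes of choline use were represented by 17 members, of which 1 was lower (2.75% of all genes). Chpt1, which makes phosphatidylcholine in the last step of its synthesis, had 466 to 549.6 normalized counts in IDch and 570.2 to 678 in ISch, a log2 fold change of -0.25 that missed the criterion without ISch replicate 2. It overlaps Gnptab and Sycp3 in the reference table. The methionine and folate cycle (0 of 18) and the writers and erasers of H3K9 methylation (0 of 18) had no member at the criterion, with or without the class covariate. Among 15 genes of DNA methylation 2 were lower (2.75% of all genes), the dioxygenase Tet3 at -0.27 and Gadd45b, a stress and activity-induced factor, at -0.33. Both had overlapping groups. Tet3 had 380.5 to 533 in IDch and 524 to 618 in ISch, and it missed the criterion without IDch replicate 4 or ISch replicate 1. Under the class covariate Tet3 was at -0.41 and Gadd45b missed the criterion. The list then held 3 lower members, where 6.98% of all genes were lower.

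Genes of energy metabolism had small differences. Of 30 entries of the nuclear-encoded respiratory chain, with Uqcrb listed as 2 entries, none met the criterion, yet 27 were positive with a median log2 fold change of 0.0877, and the covariate gave 0.0947. The summed level was 5762 to 6068 CPM in IDch and 5410.5 to 5758 in ISch, with no overlap, beside 5764 to 5948 in ID and 5684 to 6061 in IS. Of the 13 genes encoded in mitochondrial DNA, 12 were negative and 2 were lower at the criterion (2.75% of all genes), Mt-atp8 at -0.34 and Mt-nd4l at -0.41. Mt-nd4l had 8093 to 10304 in IDch and 9846 to 14398 in ISch. Their summed level overlapped, at 65310.2 to 81096 in IDch and 67462 to 81019 in ISch. With the covariate the median of the list was 0.0176 in place of -0.0925, so its sign turned.

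Synaptic genes were mostly at small negative values. Camk2a, the abundant kinase of long-term potentiation, had 40127, 38298, 39517 and 31211 normalized counts in IDch replicates 1 to 4 and 42683, 44295, 47729.8 and 43133 in ISch replicates 1 to 4. No IDch library reached an ISch library, and the log2 fold change of Camk2a was -0.25 with a standard error of 0.075, though it missed the criterion without IDch replicate 4. Camk4, a kinase that phosphorylates CREB, had 615 to 874 and 765 to 996 (-0.36). Within numbers 16 to 18, where ISch replicate 1 (765) was the only ISch library, its difference was -0.02. Camk2a and Camk4 were the 2 lower members of 17 plasticity kinases and phosphatases, where 2.75% of all genes were lower. Of 10 AMPA and NMDA receptor subunits Grin2c was lower at -0.20, and of 12 GABA-A receptor subunits Gabrb2 was lower at -0.28. Grin2c lost the criterion under 9 of the 17 alternatives, and Gabrb2 under 6. Under the covariate Gabrb2 was at -0.46. The covariate gave 4 lower plasticity kinases and phosphatases, 3 AMPA and NMDA subunits and 2 GABA-A subunits, where 6.98% of all genes were lower.

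Of the 9 neurotrophins and receptors none met the criterion and 8 were negative, and with the class covariate 2 were lower (6.98% of all genes). Bdnf, the neurotrophin induced with the immediate early genes, had 1137, 1212, 962 and 1149 normalized counts in IDch replicates 1 to 4 and 1191, 1198, 1174 and 1455 in ISch replicates 1 to 4. The groups overlapped (log2 fold change -0.17, unadjusted p = 0.0855). In females without choline Bdnf had 855 to 1099 in ID and 745 to 828 in IS, a log2 difference of 0.26, and its interaction with choline was -0.42 with an adjusted p of 0.346 (edgeR). Of 21 mTOR pathway genes 1 was higher (1.82% of all genes) and 1 lower (2.75%). Ddit4l, an inhibitor of the pathway, was higher at 0.38 and Eif4ebp2, a brake on translation, was lower at -0.26. Both had overlapping groups, and each missed the criterion when some single libraries were left out. Under the class covariate Ddit4l also missed it, and 5 members of the list were lower (6.98% of all genes) and none higher.

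Interferon-response and antigen-presentation genes were the list with the most members higher, at 4 of 22 with none lower and a median of 0.0828, where 1.82% of all genes were higher. Irf7, the master factor of the interferon response, had 136, 108, 89.1 and 98.7 normalized counts in IDch replicates 1 to 4 and 58.4, 81.9, 90.1 and 49.2 in ISch replicates 1 to 4. One ISch library exceeded the lowest IDch library, and the log2 fold change of Irf7 was 0.63 with a standard error of 0.21. Oas1a, a sensor enzyme for double-stranded RNA, had 30 to 47 and 17.6 to 31.4 (0.75). Ifi27 had 1274 to 2547 and 789 to 1565 (0.55), and Psmb9, a subunit of the immunoproteasome, had 73.2 to 108 and 54.2 to 76.5 (0.44). Ifi27 and Psmb9 missed the criterion without any 1 of several libraries. Irf7 missed it in the fit of all 4 female groups and Oas1a without IDch replicate 1. With the class covariate 7 members were higher (2.87% of all genes) and none was lower, with a median of 0.18. In females without choline 3 of 22 were higher in ID (3.08% of all genes), with a median of 0.109. The interaction with choline was positive at the criterion in none (3.17% of all genes) and negative in 1 (4.16%). In choline-supplemented males none of 19 was higher (3.09% of all genes) and 1 was lower (5.03%). The lower member was Ifi27 at -0.83, opposite to the females.

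Few cell type markers met the criterion, where 1.82% of all genes were higher and 2.75% lower. None of 13 microglia markers, 5 oligodendrocyte precursor markers, 12 endothelial and pericyte markers or 5 blood markers met the criterion, although 11 of the 12 endothelial and pericyte markers and all 5 blood markers were negative. With the class covariate 3 endothelial and pericyte markers and 2 oligodendrocyte precursor markers were lower, where 6.98% of all genes were lower. The median of the blood markers turned from -0.289 to 0.127 under the covariate. The summed microglia level was 425 to 463 CPM in IDch and 432 to 484 in ISch. Gja1, the astrocyte connexin, was lower at -0.21 (9921 to 10914 in IDch and 11208 to 12886 in ISch), and the other 11 astrocyte markers did not meet the criterion. Gja1 missed it under the class covariate, under library size alone and without IDch replicate 1, IDch replicate 2 or ISch replicate 3. Gjb1, a connexin of oligodendrocytes, was higher at 0.31 with overlapping groups and missed the criterion without any 1 of 5 libraries. With the covariate 5 of 18 myelin genes were higher (2.87% of all genes). Ttr, the defining transcript of the choroid plexus, had 24.5 to 52.5 normalized counts in IDch and 48.7 to 103 in ISch (-0.78), a low level in both groups. The Ttr ranges overlapped, and Ttr missed the criterion under the class covariate (-0.49), in the fit of all 4 female groups and in 4 of the 8 fits without 1 library. Cemip, a hyaluronidase counted with the meninges, had 774 to 900.3 and 967 to 1060.4 (-0.28). The summed choroid plexus level was 105 to 118 in IDch and 99.7 to 119 in ISch.

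The remaining lists had few members at the criterion, where 1.82% of all genes were higher and 2.75% lower. Of 19 heat shock genes Dnajb5, a co-chaperone, was at -0.20 with overlapping groups and met the criterion in 10 of 18 settings, with -0.09 under the class covariate. Of 39 ribosomal protein genes Rplp2 had a log2 fold change of 2.28 that came from IDch replicate 3 alone, with 509 normalized counts where the other 7 libraries had 19.5 to 55.7, and it missed the criterion without that library. Hypoxia targets (0 of 16), opioid and dopamine signalling (0 of 13), thalamus and habenula (0 of 10), estrogen and prolactin signalling (0 of 7), splicing factors (0 of 19) and amyloid and tau genes (0 of 15) had none. With the class covariate 3 amyloid and tau genes, 2 opioid and dopamine genes and 1 thalamus and habenula marker were lower (6.98% of all genes). One splicing factor was higher (2.87% of all genes).

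**Figure D5:**
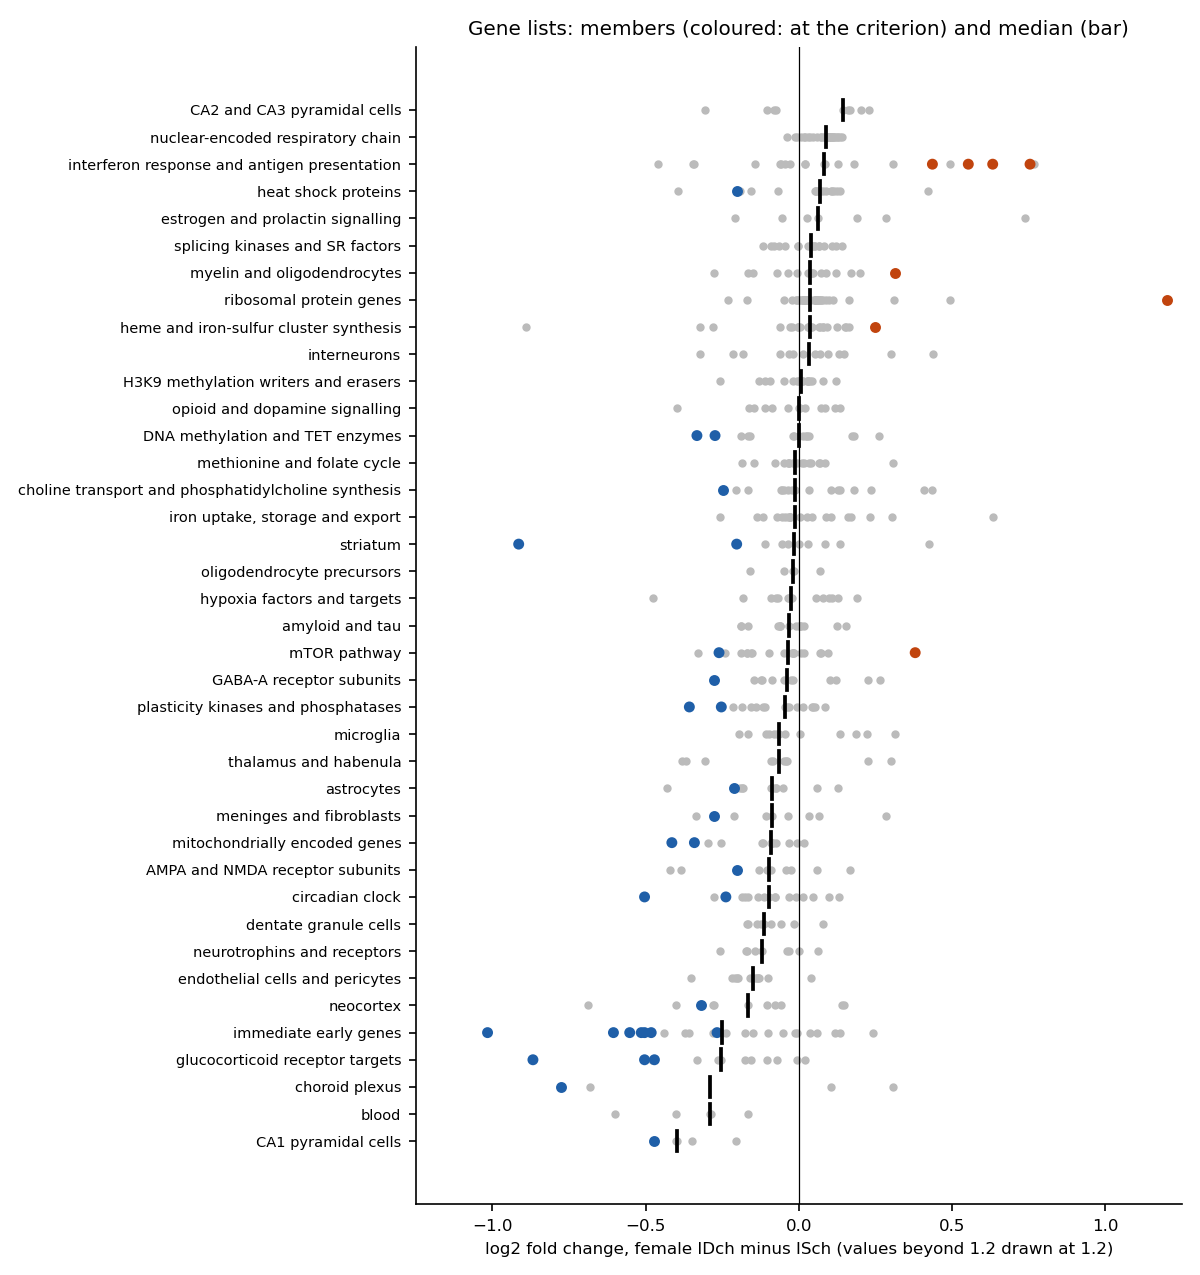
Log2 fold change of IDch minus ISch for the tested members of 39 gene lists, with grey points for members outside the criterion, orange and blue points for members higher and lower at the criterion, and a black bar at each list's median. The immediate early genes hold the most blue points (7) and the interferon list the most orange points (4); Rplp2, at 2.28, is drawn at the edge of the axis.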

How the data were processed

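Per the labels, hippocampal total RNA of each rat was made into a barcoded library from RNA with an integrity score above the laboratory's limit. The submitters' processing notes name FastQC, Trimmomatic, HISAT2, featureCounts (Subread) and the build Rnor_6.0. The annotation release, strand setting and handling of multi-mapped reads were not given in the sources used here. The authors deposited raw counts per gene, not normalized. The female table held 32883 entries, of which 2637 shared a symbol with another entry and 20857 had a count in the 8 libraries. Genes with enough counts by filterByExpr were kept (14521). Counts were tested in R 4.3.3 with the edgeR 4.0.16 quasi-likelihood test (TMM scaling, Benjamini-Hochberg adjustment), fitted on the 8 libraries alone, as the study fits each pair of groups. Standard errors were the log2 fold change divided by the square root of F. Interactions used 16 libraries. Normalized counts are TMM-scaled over the 16 female libraries to their mean size. Within-class differences used a pseudocount of 0.5. Depth limits low genes: 3 counts, what a count of 0 allows, were 0.113 to 0.163 CPM. Intervals of this kind cover counting error only. The test was checked on simulated counts that had no number classes, so that check does not cover the difference between the classes seen here.

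Named genes were those with an adjusted p under 0.05 and, where fewer than 8 in a direction passed, the genes with the smallest unadjusted p at the criterion with a symbol, no overlap between groups and a mean of at least 20 normalized counts, then up to 4 members per list at the criterion, and Tfrc and Bdnf. Genes and lists were chosen with earlier results of these data known. The alternatives were DESeq2 1.42.0, the edgeR likelihood ratio test, RLE size factors, library size alone, 2 filters, all 4 female groups in one fit, a replicate block, the library number class, and leaving out each library. Promoters came from RefSeq tables of GRCr8, used for no other coordinates, and 50 of 54 named genes were matched there to look for overlapping genes. p-values measure the spread between these rats. A result on 1 listed gene is not reported here.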

Additional observations from a re-analysis of the deposited data

Results flagged for a closer look

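Within a group of 4 libraries, 1 library lay far from the other 3 by Dixon's test for 10 of 54 named genes. The IDch and ISch groups of each gene were looked at separately. Chance alone would give this for about 1 in 20 groups. Most of the genes were chosen from values of these same libraries, so this rate need not hold for them. The far library was ISch replicate 1 for Krt222 (703 normalized counts), Grin2c (1941) and Camk4 (765), and IDch replicate 4 for Mt-atp8 (7777) and Psmb9 (108). These are the libraries whose number class differs from the rest of their group. The others were IDch replicate 1 for Sstr4 (529), IDch replicate 2 for Proser2 (54.1), IDch replicate 3 for Rplp2 (509), ISch replicate 3 for Cdkn1a (229) and ISch replicate 4 for Bdnf (1455).

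The iron contrast of AABR07001512.1 differed between females with and without choline, by -3.98 on the log2 scale, and between choline-supplemented females and males, by -5.61 (edgeR, adjusted p under the threshold in both). The entry passed the filter only with the added libraries.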

How the results depend on the processing

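At an adjusted p under 0.05, DESeq2 called 37 genes, the edgeR likelihood ratio test 19, the fit of all 4 female groups 5 and the class covariate 3, where the quasi-likelihood test on 8 libraries called 1. Leaving out each library in turn gave 0 to 11, the most without IDch replicate 4. At the criterion the class covariate gave 1431 genes (417 higher and 1014 lower) and leaving out 1 library 572 to 1025, with 220 to 470 higher and 344 to 612 lower. The most was without IDch replicate 4 (1025) and the next without ISch replicate 1 (989). Testing all genes with a count gave 399 higher. The immediate early genes at the criterion numbered 5 to 12 when 1 library was left out. Replicate numbers did not pair the samples, since deviations of same-numbered libraries correlated at -0.068 to 0.17. With the replicate block 14 immediate early genes and 794 genes in all met the criterion and 1 the adjusted threshold. The difference of the iron contrast with and without choline held 0 genes with the replicate block, 57 by DESeq2 and 0 to 25 without 1 library. The difference from the males held 2 with all genes, 0 with a minimum of 1 CPM, 72 by DESeq2 and 1 to 7 without 1 library. The cause of these differences was not tested. For single named genes and their interactions, 1024 values under the alternatives kept direction and side of the threshold, 123 lost the threshold, 4 gained it and 0 changed sign.

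With 4 rats a group, small changes can be missed, and unequal number classes and depths that were higher in IDch limit these results, and changes confined to one cell type are diluted in whole hippocampus.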
